A study of Rattus norvegicus with 12 samples.

Results

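The nucleus accumbens of cocaine-taking rats given TsA was compared with that of cocaine-taking rats given vehicle, on 6 of the 12 arrays of the series. The 3 arrays labelled nucleus accumbens and TsA were set against the 3 labelled nucleus accumbens and vehicle, and no array of the anterior cingulate cortex entered the comparison (the 3 TsA and 3 vehicle arrays of that structure, from rats treated alike, serve the test of the difference between structures at the end, an alternative fit of all 12 arrays, and a value beside a few genes). All rats of both groups were male Wistar rats that had learned to take cocaine by nose poke, at 0.3 mg/kg per intravenous injection in 40 µl, in 4 daily sessions of 2 h, and all were killed 2 h after the last session, so both groups carry the cocaine and no drug-naive group is compared. Tissue of 2 rats was pooled for each array, and labelling started from 6 µg of RNA, so that each group stands for 3 pools and the spread between single rats cannot be seen. The labels give the treatment only as TsA, a usual abbreviation of trichostatin A, and state neither its dose nor its route, nor the age of the rats. They do not state whether an accumbens pool and a cortex pool came from the same rats.

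Trichostatin A blocks the zinc-dependent histone deacetylases, the enzymes that take acetyl groups off histone tails, and so raises histone acetylation at many promoters. The nucleus accumbens is the ventral part of the striatum, where dopamine released by drugs such as cocaine acts on medium spiny neurons. These projection neurons fall into a direct pathway type with the dopamine receptor Drd1 and an indirect pathway type with Drd2, and cocaine switches on immediate-early genes such as Fos in them within minutes to hours. The comparison therefore asks which transcripts of the accumbens differed with a treatment that by its usual name acts on histone acetylation.

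Expression was measured on an array with 31042 probe sets after control probe sets were left out, and each value is a MAS5 signal, a linear brightness, scaled so that the 2% trimmed mean of each array is 100.03. Tests were run on log2(signal + 16), where a difference of 1 is a doubling of signal + 16, and the added 16 makes the difference smaller for dim genes. A gene is called dim here where its mean signal over the 6 arrays is under 18.1, the 40th percentile of the probe sets. The dissection carried the transcripts of the striatum: Drd1 had 1178, 1136 and 1171 in the TsA arrays, against 1086, 1358 and 1074 in the vehicle arrays, and Adora2a, the adenosine receptor of the indirect pathway, had 696, 827 and 635 in the TsA arrays, against 662, 844 and 708 in the vehicle arrays. The groups overlapped for both genes. In bulk tissue, fewer cells of a type and less RNA per cell cannot be told apart. Over probe sets that were not dim, arrays of the TsA group correlated with one another at 0.9877 to 0.9883. Those of the vehicle group correlated at 0.9470 to 0.9767, where the lowest value is that of vehicle arrays 1 and 3. With the TsA arrays, vehicle array 2 correlated at 0.9861 to 0.9883, vehicle array 3 at 0.9813 to 0.9821 and vehicle array 1 at 0.9699 to 0.9739. Vehicle array 2 thus lay closer to the TsA arrays than to either other vehicle array. The run records put vehicle arrays 1 and 2 in 1 fluidics run and vehicle array 3 with the 3 TsA arrays in another, so treatment and run can be told apart only through vehicle array 3, and the difference of the 3 TsA arrays from that array alone, which has no replicate on the vehicle side, is called the value within the run.

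No transcript passed the test in the accumbens. Of the 31042 probe sets, 0 (0%) had an adjusted p under 0.05 by limma with Benjamini-Hochberg adjustment, and the smallest adjusted p was 1.00. At an unadjusted p under 0.05 in limma there were 825 probe sets (2.66%), fewer than the 1552 expected by chance. Of them 356 were higher (1.15%) and 469 lower (1.51%) with TsA. Without vehicle array 3 the count at that limit was 2618, with 0 past the test and a smallest adjusted p of 0.588. The TsA arrays all lay above the vehicle arrays for 1080 probe sets (3.48%) and all below them for 1126 (3.63%), in all 2206 (7.11%). With 1 probe set for each of the 14217 named genes, the brightest, the groups did not overlap for 930 genes (6.54%), 470 with TsA higher (3.31%) and 460 with TsA lower (3.24%). Of these genes 0 (0%) passed and 295 (2.07%) had an unadjusted p under 0.05, 124 higher (0.872%) and 171 lower (1.20%). The difference was above 0 for 7782 genes (54.7%) and below 0 for 6435 (45.3%), the shares against which the gene lists are read. The median size of the difference over all probe sets was 0.0769, the extremes were 0.988 and -0.878, and 0 probe sets differed by 1 or more. A median SE of 0.138 among the 18625 probe sets that were not dim sets the precision, and an exact permutation test of 3 arrays against 3 cannot give a two-sided p below 0.100. These counts do not show that the treatment left the genes as they were: intervals of the differences stand beside the main genes below.

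Among genes that were not dim, 17 had TsA arrays all above the vehicle arrays with a difference of at least 0.4, and 14 had TsA arrays all below them by as much. The 12 of each kind with the smallest unadjusted p are described here, as values and not as calls, since each of them had an adjusted p of 1.00 in the limma fit. Pcdh10 encodes a protocadherin, an adhesion molecule at synapses. It had a signal of 142, 160.1 and 162 in the TsA arrays, against 117, 101 and 111 in the vehicle arrays, a difference of 0.44 ± 0.11 (SE) with a 95% interval of 0.19 to 0.69, and 0.42 within the run. Each TsA array was thus above each vehicle array, and the spread within both groups was small. Nts encodes the precursor of neurotensin, a peptide that modulates dopamine signalling. Its signal was 294, 270.1 and 369 in the TsA arrays, against 176, 240.1 and 233 in the vehicle arrays, a difference of 0.49 ± 0.16 (interval 0.14 to 0.85), and the highest vehicle array lay close under the lowest TsA array. Enho encodes the precursor of the secreted peptide adropin, with 118, 182 and 136 in the TsA arrays, against 116, 66.4 and 78.9 in the vehicle arrays (0.66 ± 0.21, interval 0.18 to 1.13). Here vehicle array 1 nearly reached the lowest TsA array.

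Slc13a3 encodes a sodium-coupled transporter of dicarboxylates such as succinate and had 50.4, 68.9 and 62.3 in the TsA arrays, against 31.3, 29.8 and 45.8 in the vehicle arrays (0.57 ± 0.16). Within the run its difference was 0.30, since vehicle array 3 was the highest of its group. Vehicle array 3 was also the highest vehicle array for Palmd, the gene of palmdelphin, which had 121, 99.3 and 99.9 in the TsA arrays, against 50.9, 54.0 and 81.4 in the vehicle arrays (0.67 ± 0.17, and 0.33 within the run). Other probe sets of Palmd stood at 0.073, 0.16 and -0.43, so its probe sets disagree. Rell2, a relative of a tumour necrosis factor receptor, had 316, 347 and 330.1 in the TsA arrays, against 224, 274 and 237 in the vehicle arrays (0.42 ± 0.11). L3mbtl3 encodes a reader of methylated lysines on histones and had 82.4, 69.0 and 77.9 in the TsA arrays, against 62.4, 40.8 and 51.9 in the vehicle arrays (0.46 ± 0.15, and 0.53 at a second probe set). In the cortex it stood at 0.34 ± 0.13, on the same side of 0. Mmp14, a membrane-bound matrix metalloproteinase, stood at 0.45 ± 0.16 (0.070 at a second probe set). Arl16, a small GTPase gene, stood at 0.73 ± 0.24 (0.51 at a second probe set), with TsA array 1 at 208 and the other TsA arrays at 113 and 124. Tbc1d2b, which holds a domain that switches off Rab GTPases, stood at 0.45 ± 0.15, and Crocc, the gene of the ciliary rootlet protein rootletin, at 0.55 ± 0.17. Over these 11 genes and Hdac1, described below, the value within the run lay between 0.27 (Mmp14) and 0.75 (Enho). Its sign was bound to be that of the whole difference, since the genes were chosen for groups that do not overlap.

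On the lower side, Mpeg1, which encodes the pore-forming protein perforin-2 of macrophages and microglia, had 61.4, 59.7 and 97.0 in the TsA arrays, against 133, 192 and 109.7 in the vehicle arrays, a difference of -0.85 ± 0.22 (SE) with an interval of -1.36 to -0.35. A second probe set of Mpeg1 stood at -0.44, and the value within the run was -0.53. Cx3cr1 encodes the fractalkine receptor, in brain a marker of microglia. Its signal was 50.4, 63.5 and 54.3 in the TsA arrays, against 76.4, 78.1 and 83.2 in the vehicle arrays (-0.41 ± 0.12, interval -0.68 to -0.13), and the vehicle arrays lay close together. Csf1r, the receptor that microglia need to survive, had 211, 247 and 242 in the TsA arrays, against 220.1, 235 and 289 in the vehicle arrays (-0.076 ± 0.13), and Aif1, which encodes the calcium-binding protein Iba1, had 99.6, 98.4 and 97.8 in the TsA arrays, against 103, 96.6 and 102 in the vehicle arrays (-0.021 ± 0.10), with overlapping groups in each. Cd163, a macrophage scavenger receptor gene, was dim and without overlap on the other side of 0, with 7.10, 9.70 and 8.12 in the TsA arrays, against 6.41, 3.32 and 1.38 in the vehicle arrays (0.31 ± 0.11). Over the 26 measured markers of microglia and macrophages, 15 were above 0 and 11 below, and the median was 0.0344, or -0.173 within the run. The summed signal of the list was 4068, 4417 and 4383 in the TsA arrays, against 3503, 3986 and 4875 in the vehicle arrays. Its part in the values of Mpeg1 and Cx3cr1 was not tested.

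Padi2 encodes a peptidylarginine deiminase, which turns arginine into citrulline in proteins that include histones. It had 54.6, 42.8 and 66.0 in the TsA arrays, against 95.4, 93.5 and 91.8 in the vehicle arrays, a difference of -0.65 ± 0.14 (interval -0.98 to -0.32), and the vehicle arrays were nearly equal. Pak3, a kinase gene of dendritic spines, had 179, 152 and 179.6 in the TsA arrays, against 237, 243 and 278 in the vehicle arrays (-0.53 ± 0.11, interval -0.79 to -0.27). A second probe set stood at -0.55 and another at 0.033. Tead2, a DNA-binding partner of the Hippo pathway's YAP, had 19.2, 22.0 and 12.9 in the TsA arrays, against 38.8, 35.7 and 28.8 in the vehicle arrays (-0.57 ± 0.15), signals near the limit for dim genes, and with 64 in place of 16 added the difference was -0.263. Baz2a, which encodes a subunit of a complex that silences ribosomal RNA genes, stood at -0.52 ± 0.17, and Pou2f1, the gene of the transcription factor Oct-1, at -0.54 ± 0.21. For Pou2f1 vehicle array 1 had 84.1 and the other vehicle arrays 41.1 and 46.8, against 30.0, 37.5 and 31.8 in the TsA arrays. Cdca7, a gene of the cell cycle, stood at -0.42 ± 0.17, Ermard at -0.46 ± 0.18 and C2h1orf52 at -0.49 ± 0.13. Brinp2, a gene of a neural protein that retinoic acid induces, stood at -0.53 ± 0.19 but at 0.20 at a second probe set. Atosa stood at -0.46 ± 0.15, at -0.37 and 0.20 at other probe sets and at -0.20 within the run, where vehicle array 3 was the lowest of its group. Values within the run were below 0 for each of the 12 genes. The choice of genes without overlap fixed that sign, so it is no separate check of the run.

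**Figure D1:**
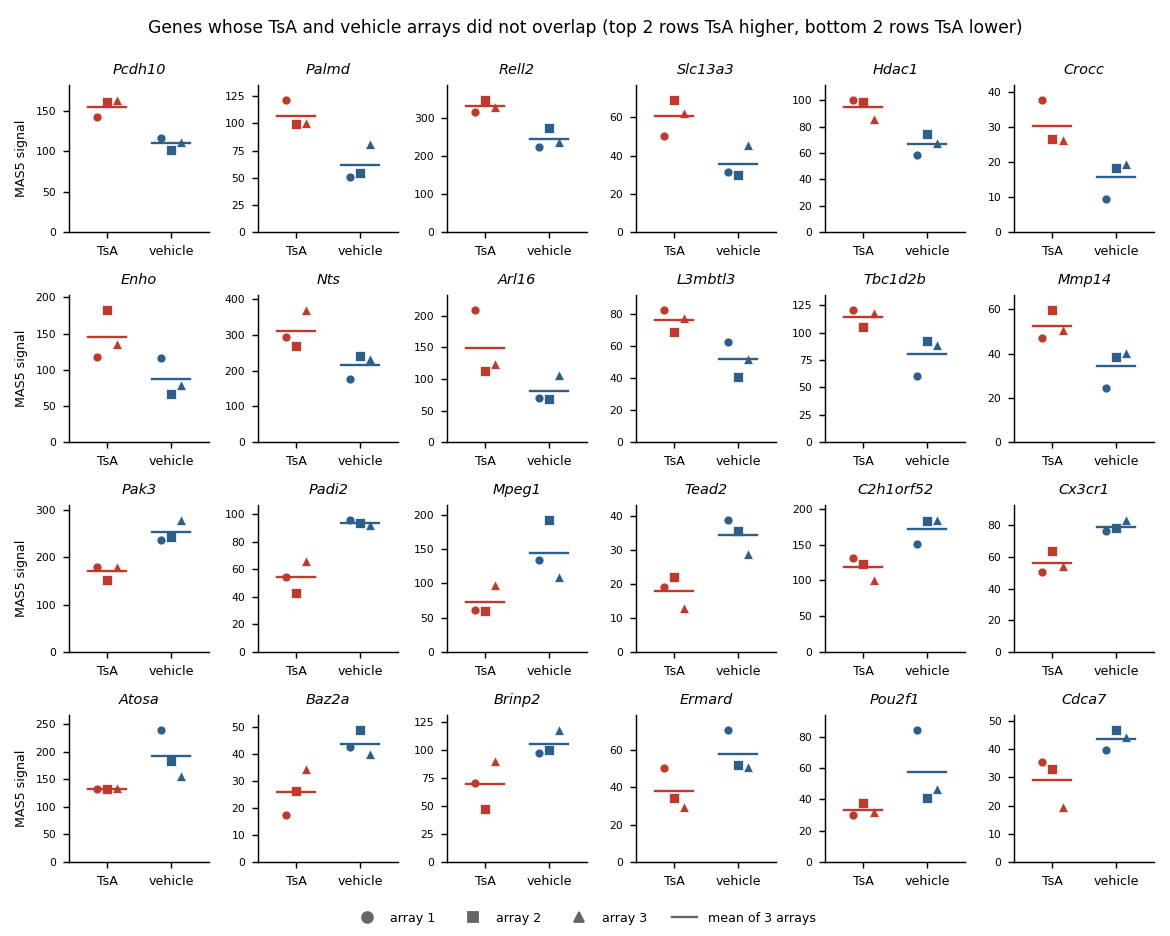
Signal of the 24 genes with non-overlapping groups, 1 panel each, with the MAS5 signal from 0 upward on the vertical axis, the TsA arrays (red) left of the vehicle arrays (blue), symbols for arrays 1 to 3 and a line at the mean of 3 arrays. In the top rows the TsA arrays lie above the vehicle arrays, for example Pcdh10 with 142 to 162 against 101 to 117, and in the bottom rows below them, for example Padi2 with 42.8 to 66.0 against 91.8 to 95.4.

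Of the list of histone deacetylases and their corepressors, 26 genes were measured. The list holds the zinc-dependent enzymes, the usual targets of trichostatin A, together with the sirtuins, another class of deacetylase, and the corepressors. Its counts are therefore not those of the targets alone. None passed the test: 12 stood above 0 and 14 below, with a median of -0.0150, against 0.0122 over all genes. The groups did not overlap for 3 members with TsA higher and 2 with TsA lower, against 3.31% and 3.24% of all genes. Among the class I enzymes, which act on histones in the nucleus, Hdac1 had 100.0, 98.5 and 85.8 in the TsA arrays, against 58.9, 74.6 and 67.6 in the vehicle arrays. Each TsA array was above each vehicle array, with a difference of 0.42 ± 0.12 (SE), an interval of 0.13 to 0.70 and an unadjusted p of 0.00939 (adjusted p 1.00, limma). A second probe set of Hdac1 stood at 0.36, and the value within the run was 0.40. Its close relative Hdac2 had 587, 597 and 552 in the TsA arrays, against 652, 571 and 536 in the vehicle arrays (-0.015 ± 0.10, interval -0.26 to 0.22), with overlapping groups, and Hdac3 and Hdac8 stood at -0.020 ± 0.12 and -0.023 ± 0.14.

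Of the class IIa enzymes, which shuttle between nucleus and cytoplasm, Hdac4 stood at -0.029 ± 0.18 and Hdac5 at 0.010 ± 0.14, with overlapping groups. Hdac7 had 30.2, 20.4 and 24.1 in the TsA arrays, against 14.2, 19.6 and 19.6 in the vehicle arrays (0.27 ± 0.14), without overlap but with vehicle arrays 2 and 3 just under the lowest TsA array. In class IIb, Hdac10 had 26.1, 29.2 and 23.8 in the TsA arrays, against 32.7, 36.6 and 38.8 in the vehicle arrays (-0.30 ± 0.12, interval -0.58 to -0.016). Other probe sets of Hdac10 stood at -0.18, -0.028 and -0.035, so the size differs between them. Hdac6, the tubulin deacetylase, stood at -0.018 ± 0.12, and Hdac11, the class IV enzyme, at 0.029 ± 0.11. The sirtuins use NAD and are not blocked by trichostatin A. Sirt6 had 84.6, 77.5 and 79.2 in the TsA arrays, against 60.9, 61.8 and 74.8 in the vehicle arrays (0.24 ± 0.12), without overlap, and 0.086 within the run. Sirt4, a mitochondrial sirtuin, was without overlap in the other direction at -0.088 ± 0.11, and Sirt2, Sirt3, Sirt5 and Sirt7 lay between 0.037 and 0.085. Among the corepressors that carry the class I enzymes to DNA, Mta3 had the largest value at 0.38 ± 0.19, with 55.9, 87.7 and 60.05 in the TsA arrays, against 46.2, 38.5 and 60.5 in the vehicle arrays, and its other probe sets stood at 0.037 and -0.13. The median of the list turned its sign when single arrays were left out (-0.0495 to 0.0416).

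On the opposing side, acetyltransferases, which add acetyl groups, and the bromodomain proteins that read them leaned below 0. Of 19 measured genes 16 stood below 0 and 3 above, with a median of -0.0622; 0 passed, and 3 were without overlap, all lower with TsA, against 3.24% of all genes. Crebbp, the gene of the CREB-binding protein, had 200.8, 196 and 189.7 in the TsA arrays, against 259, 209 and 227 in the vehicle arrays (-0.22 ± 0.11, interval -0.47 to 0.026), and its 4 other probe sets stood between -0.15 and 0.083. Ep300, its paralog, had 289, 361 and 377 in the TsA arrays, against 421, 327 and 436 in the vehicle arrays (-0.19 ± 0.15, and -0.0040 at a second probe set), with overlapping groups. Kat6b had 164, 176 and 173 in the TsA arrays, against 187, 204 and 185 in the vehicle arrays (-0.16 ± 0.10), and the reader Brd1 77.5, 71.5 and 74.7 in the TsA arrays, against 79.9, 96.6 and 89.4 in the vehicle arrays (-0.21 ± 0.11, and -0.054 and 0.032 at other probe sets). Kat2b was on the other side, at 0.12 ± 0.13. The median was 0.0182 without vehicle array 2, so 1 array decides its sign, and -0.106 within the run.

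**Figure D2:**
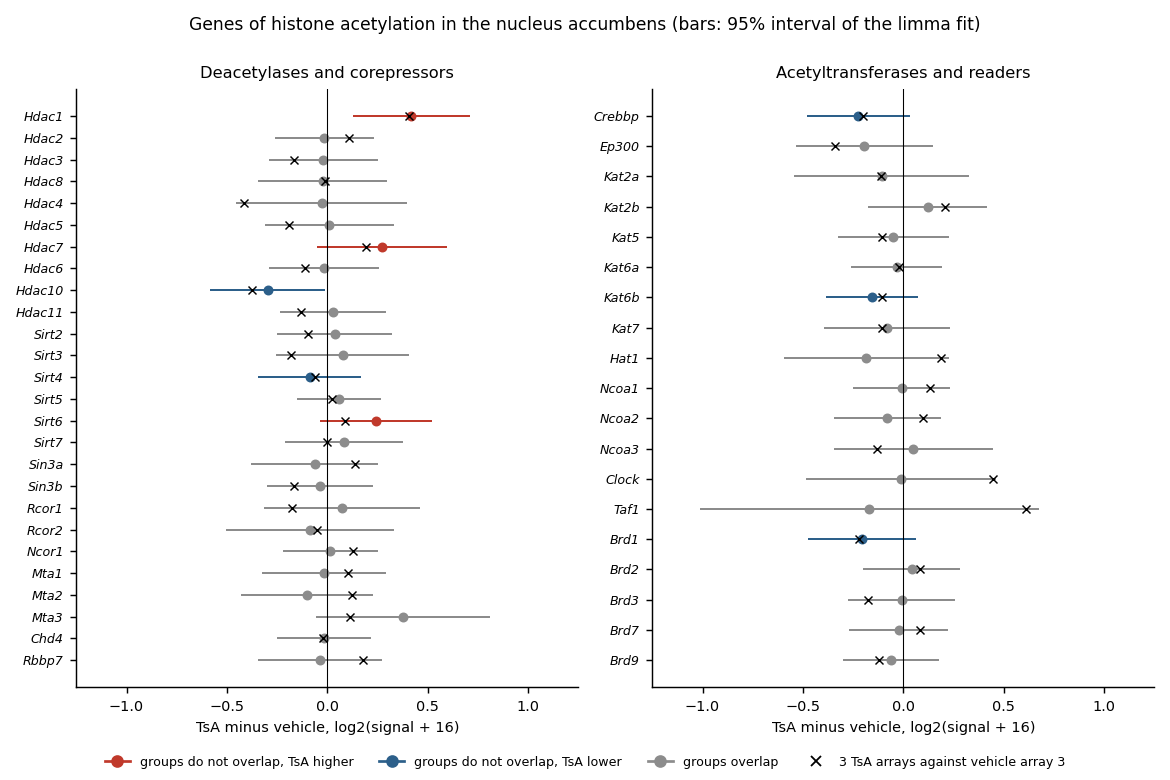
Difference TsA minus vehicle on the log2(signal + 16) scale (horizontal axis) for 26 genes of deacetylases and corepressors (left) and 19 of acetyltransferases and readers (right), as points with 95% intervals, in red or blue where the groups do not overlap, with crosses for the 3 TsA arrays against vehicle array 3 alone. Hdac1 and Hdac10 are the members whose intervals leave out 0, and for Taf1 (-0.17 and 0.61 within the run) and Clock (-0.011 and 0.44) the cross lies far to the right of the point.

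Other chromatin genes showed no member past the test either. Of 17 genes of DNA methylation, 10 stood above 0 and 7 below, with a median of 0.0327 and 0 without overlap. Dnmt3a, a writer of DNA methylation, stood at -0.062 ± 0.14 and Dnmt1, which copies the mark, at -0.071 ± 0.12. Of 26 genes of histone methylation, 9 stood above 0 and 17 below (median -0.0315). The H3K79 methyltransferase Dot1l had 44.4, 64.2 and 62.1 in the TsA arrays, against 65.5, 73.0 and 65.7 in the vehicle arrays (-0.22 ± 0.14), and its other probe set stood at 0.10. Of 7 genes of histones, H2aj had 128, 132 and 142 in the TsA arrays, against 169, 148 and 158 in the vehicle arrays (-0.22 ± 0.10), without overlap. It was the 1 such member of the 7, against 3.24% of all genes with TsA lower.

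Genes known to respond to deacetylase inhibitors in cultured cells were measured for 29 members. Of these, 21 stood above 0 and 8 below, with a median of 0.0557 and 0 past the test; 2 were without overlap higher and 2 lower, against 3.31% and 3.24% of all genes. Hspa2, a heat shock protein gene, had 65.9, 61.0 and 63.5 in the TsA arrays, against 56.3, 47.0 and 42.0 in the vehicle arrays (0.31 ± 0.13, and 0.19 at a second probe set). Gsn, which encodes the actin-severing protein gelsolin and is a common responder in cultured cells, had 839, 761 and 885 in the TsA arrays, against 674, 712 and 764 in the vehicle arrays (0.20 ± 0.10, interval -0.028 to 0.44), where vehicle array 3 overlapped TsA array 2. Cdkn1a encodes the cell cycle inhibitor p21, a widely used sign of deacetylase inhibition in cultured cells. It had 71.2, 119.9 and 128 in the TsA arrays, against 61.3, 123 and 77.0 in the vehicle arrays (0.26 ± 0.26, and 0.033 at a second probe set), and TsA array 1 lay below 2 of the vehicle arrays. Sat1, the rate-limiting enzyme of polyamine breakdown, was below 0 without overlap, with 650.2, 646 and 571 in the TsA arrays, against 676, 765 and 744 in the vehicle arrays (-0.22 ± 0.10). The metallothionein gene Mt1 was dim and below 0 (-0.46 ± 0.11), and Tubb6, a tubulin gene at the limit for dim genes, was above 0 (0.16 ± 0.11). Within the run the median of the list was -0.00152.

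Immediate-early genes, which neurons switch on by firing, stood above 0 for 25 of 35 and below for 10, with a median of 0.0570 and 0 past the test. Fos, which encodes a subunit of the transcription factor AP-1, had 245, 269 and 329 in the TsA arrays, against 192, 232 and 275 in the vehicle arrays, a difference of 0.26 ± 0.16 (SE) with an interval of -0.10 to 0.61. Its second probe set stood at -0.074, on the other side of 0. Its TsA arrays were high on average, yet vehicle array 3 was above 2 of them, and within the run the difference was 0.021. Fosb, whose product builds up with repeated cocaine, had 99.2, 119 and 114 in the TsA arrays, against 80.3, 113 and 116 in the vehicle arrays (0.10 ± 0.15). Arc, a gene of synaptic scaling, had 341, 250.4 and 395 in the TsA arrays, against 258, 231 and 395 in the vehicle arrays (0.16 ± 0.22), and Egr1 1380, 1106 and 1602 in the TsA arrays, against 1270, 1107 and 1472 in the vehicle arrays (0.079 ± 0.16). In each of these genes vehicle array 3 was the highest of its group, and in Arc and Egr1 it was above 2 TsA arrays. Inhba, which encodes a subunit of activin, had 237, 172 and 179 in the TsA arrays, against 136, 166 and 162 in the vehicle arrays (0.30 ± 0.14, and 0.023 at a second probe set) without overlap. The dim Trib1 (0.24 ± 0.12, and 0.22 and -0.060 at other probe sets) was without overlap too, so that 2 of 35 members were higher in this way, against 3.31% of all genes. Within the run the median of the list was -0.126, on the other side of 0, and without vehicle array 3 it was 0.169. Dusp1, which encodes a phosphatase that shuts off MAP kinases, had 353, 368 and 358 in the TsA arrays, against 167, 347 and 303 in the vehicle arrays (0.44 ± 0.23, and 0.19 at a second probe set), without overlap and with vehicle array 1 far below the rest. Over the 15 MAP kinase phosphatases and feedback genes the median was 0.0401. Dusp1 was the 1 of them without overlap, against 3.31% of all genes with TsA higher.

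Dopamine and cyclic AMP signalling was measured for 41 genes, of which 18 stood above 0 and 23 below, with a median of -0.0172, 0 past the test and 0 without overlap. The range of these members was -0.159 to 0.148. Drd1 stood at -0.0060 ± 0.11 (interval -0.27 to 0.26) and Drd2 at -0.085 ± 0.12 (interval -0.37 to 0.20). Downstream of the receptors, Ppp1r1b, the gene of the phosphatase inhibitor DARPP-32, had 2424, 2108 and 2170 in the TsA arrays, against 2070, 2594 and 1940 in the vehicle arrays (0.030 ± 0.13), and Gnal, the stimulatory G protein of the striatum, 617, 689.7 and 607 in the TsA arrays, against 538, 706 and 503 in the vehicle arrays (0.14 ± 0.14). The adenylyl cyclase gene Adcy5 stood at -0.084 ± 0.14 and Rgs9, which speeds the shut-off of G proteins, at -0.15 ± 0.11. Vehicle array 2 was the highest of the 6 in Drd1, Drd2, Ppp1r1b, Gnal, Adcy5 and Rgs9. Creb1, a transcription factor that cyclic AMP activates, stood at -0.065 ± 0.16.

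Markers of the spiny neurons had 0 members past the test. The median over 10 markers of the direct pathway was 9.67e-04, that over 8 of the indirect pathway -0.0449 and that over 27 identity genes -0.0586. Of the identity genes 9 stood above 0 and 18 below. Their median stayed below 0 when single arrays were left out (-0.0977 to -0.00888) and was -0.0245 within the run. Foxp1, a transcription factor of these neurons, had 626, 665 and 604 in the TsA arrays, against 770.5, 693 and 725 in the vehicle arrays (-0.20 ± 0.094, interval -0.42 to 0.012), and Ptpn5, the striatum-enriched phosphatase STEP, 1158, 1104 and 1089 in the TsA arrays, against 1173, 1323 and 1246 in the vehicle arrays (-0.16 ± 0.093). The groups did not overlap for these 2 identity genes of 27, both lower with TsA, against 3.24% of all genes, and 4 other probe sets of Foxp1 stood between -0.14 and 0.048. Reln, the gene of the secreted protein reelin, had 162, 164 and 229 in the TsA arrays, against 261, 269 and 215 in the vehicle arrays (-0.41 ± 0.15), where TsA array 3 was above vehicle array 3. A second probe set of Reln stood at -0.71. The mean level of the identity genes, as a deviation from its mean over the 6 arrays, was -0.012, 0.010 and -0.082 in the TsA arrays, against 0.023, 0.117 and -0.055 in the vehicle arrays, so vehicle array 2 was the highest. The levels of indirect pathway markers were likewise highest there (-0.064, 0.032 and -0.045 in the TsA arrays, against -0.012, 0.168 and -0.078 in the vehicle arrays).

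Markers of cortical glutamatergic neurons were lowest in that same array. Their mean level deviated by 0.154, -0.121 and 0.155 in the TsA arrays, against -0.018, -0.434 and 0.264 in the vehicle arrays, and their summed signal was 4131, 3553 and 4047 in the TsA arrays, against 3741, 3109 and 4333 in the vehicle arrays. Slc17a7, which encodes the vesicular glutamate transporter of cortical neurons, had 247, 164 and 359.5 in the TsA arrays, against 224, 75.1 and 353 in the vehicle arrays (0.38 ± 0.48), and Neurod6 76.8, 51.7 and 84.0 in the TsA arrays, against 81.7, 22.8 and 85.3 in the vehicle arrays (0.24 ± 0.36). Neurod2 was lowest in vehicle array 2 too, at 1.498. Of 25 such markers 20 stood above 0, with a median of 0.132, 0 past the test and 0 without overlap. The median was -0.0903 without vehicle array 2 and -0.144 within the run. Blood markers were lowest in vehicle array 1: Hbb, a haemoglobin gene, had 2243, 2451 and 2349 in the TsA arrays, against 1210, 2894 and 2787 in the vehicle arrays. How far the tissue make-up of vehicle arrays 1 and 2 bears on the differences of other genes was not tested.

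Neuropeptide genes of the spiny neurons had overlapping groups. The signal of Penk, the enkephalin precursor, was 3049, 2571 and 2568 in the TsA arrays, against 2673, 3234 and 2363 in the vehicle arrays (-0.0070 ± 0.14), Pdyn, the dynorphin precursor, 1560, 1670 and 1536 in the TsA arrays, against 1251, 1666 and 1576 in the vehicle arrays (0.094 ± 0.12), and Tac1, the substance P precursor, stood at -0.0080 ± 0.17. Of 30 genes of neuropeptides and their receptors, 19 stood above 0 and 11 below, with a median of 0.0195. Nts, described above, was the 1 member without overlap, against 3.31% of all genes with TsA higher. Cck, the cholecystokinin precursor, had 997, 461 and 711 in the TsA arrays, against 589.8, 296 and 953 in the vehicle arrays (0.31 ± 0.41), with vehicle array 2 lowest. Its SD on the log2 scale was 0.54 with TsA and 0.82 with vehicle, wider than the medians of 0.22 and 0.33 over the cortical markers. Neurotrophins and their receptors stood above 0 for 11 of 12 genes, with a median of 0.100, at 0.0572 to 0.152 when single arrays were left out and was 0.120 within the run. None passed the test. Bdnf was dim, with 17.0, 14.3 and 19.0 in the TsA arrays, against 17.3, 6.30 and 15.0 in the vehicle arrays (0.20 ± 0.16). Ntrk2, its receptor, had 1006, 985 and 1027 in the TsA arrays, against 843, 917 and 1130 in the vehicle arrays (0.072 ± 0.12), and Ntrk3, the receptor of neurotrophin-3, 34.7, 52.7 and 51.5 in the TsA arrays, against 43.4, 41.5 and 31.1 in the vehicle arrays (0.18 ± 0.17). Ntf3 encodes neurotrophin-3 itself and was without overlap (0.37 ± 0.10), but its signals were near 0, at 7.18, 3.26 and 8.39 in the TsA arrays, against 2.39, 0.701 and 0.325 in the vehicle arrays. In this list 6 of 12 members were dim, and the median over the 6 others was 0.0846. Ntf3 was the 1 member of 12 without overlap, against 3.31% of all genes with TsA higher.

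Of the 43 lists, 4 had a mean level that did not overlap between the groups. With the 6 arrays in random order a share of 0.100 would be separated, so 4 of 43 is no excess. The 4 were neurotrophins, markers of septum, pallidum and diencephalon, histone methylation and the circadian clock. For the neurotrophins the level deviated by 0.081, -0.035 and 0.145 in the TsA arrays, against -0.045, -0.097 and -0.049 in the vehicle arrays, and for the septal and pallidal markers by 0.031, 0.033 and 0.081 in the TsA arrays, against -0.140, -0.011 and 0.005 in the vehicle arrays, both higher with TsA. Histone methylation (-0.017, -0.017 and -0.005 with TsA, against 0.024, 0.010 and 0.005 with vehicle) and the circadian clock (0.016, -0.001 and -0.095 with TsA, against 0.017, 0.017 and 0.045 with vehicle) lay lower with TsA. The gaps are small beside the range of other lists, such as -0.488 to 0.217 for blood markers among the vehicle arrays. Of the septal and pallidal markers, Nts and the dim Zic1 (0.28 ± 0.10) were without overlap, and 9 of 15 stood above 0. These 2 of 15, both higher, stand against 3.31% of all genes. Over the 43 lists, the range over the vehicle arrays was wider than that over the TsA arrays in 29. Vehicle array 1 was the lowest of the 6 in 19 lists.

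**Figure D3:**
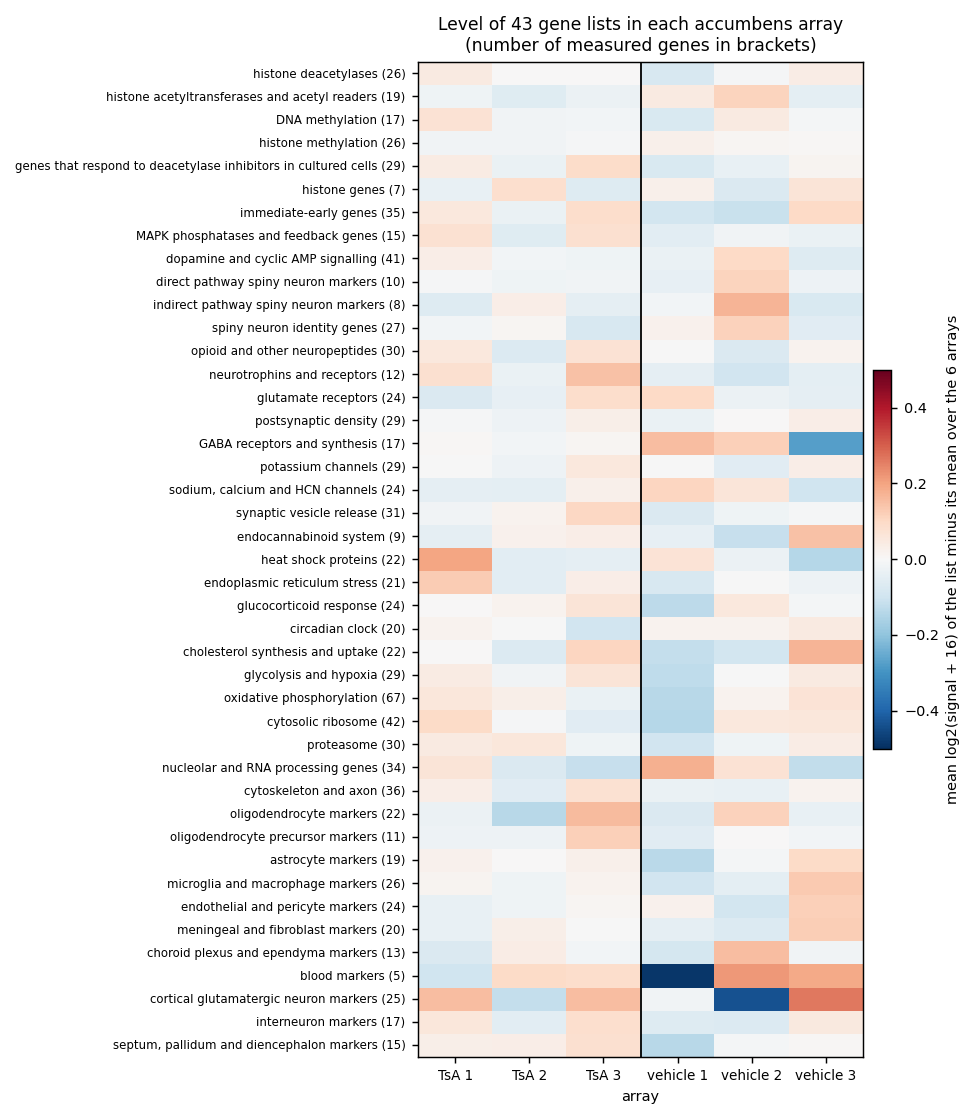
Mean log2(signal + 16) of each of the 43 gene lists (rows, with the number of measured genes) in each accumbens array (columns, TsA left of vehicle), minus its mean over the 6 arrays, from blue for -0.5 to red for 0.5. The strongest colours lie in the vehicle columns: blood markers in array 1 (-0.488), cortical markers in array 2 (-0.434) and GABA genes in array 3 (-0.274).

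Genes of energy metabolism and protein synthesis had their lowest levels in vehicle array 1. Of 67 genes of oxidative phosphorylation 52 stood above 0 and 15 below, with a median of 0.0478 and 0 past the test. Their mean level deviated by 0.057, 0.029 and -0.033 in the TsA arrays, against -0.140, 0.018 and 0.070 in the vehicle arrays. Without vehicle array 1 the median was -0.0200, and within the run -0.0609. The cytosolic ribosome (32 of 42 above 0, median 0.0314) and glycolysis with hypoxia (22 of 29 above 0, median 0.0705) likewise lay below 0 within the run, at -0.0514 and -0.0451. In endoplasmic reticulum stress 17 of 21 genes stood above 0 (median 0.0760, and 0.0464 within the run). Of the 21 genes 2 were without overlap, both higher, against 3.31% of all genes. Dnajb11, a chaperone gene of that compartment, had 228, 208 and 212 in the TsA arrays, against 184, 168 and 192 in the vehicle arrays (0.24 ± 0.10), without overlap. Hspa1a, an inducible heat shock gene, had 174, 75.7 and 57.0 in the TsA arrays, against 92.7, 42.0 and 50.6 in the vehicle arrays (0.53 ± 0.36), with TsA array 1 far above the rest.

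Among the synaptic gene lists the median was -0.00657 for 24 glutamate receptor genes, -0.00389 for 29 genes of the postsynaptic density and 0.0324 for 29 potassium channel genes. For 31 genes of vesicle release it was 0.0557, with 21 above 0 and 10 below, and -0.00239 within the run. Grik5, a kainate receptor subunit gene, had 159.6, 147 and 149.6 in the TsA arrays, against 174, 178 and 179.7 in the vehicle arrays (-0.20 ± 0.10), without overlap. It was the 1 such member of the 24 glutamate receptor genes, against 3.24% of all genes with TsA lower. Of 17 genes of GABA receptors and synthesis 10 stood above 0, with a median of 0.00953, but within the run it was 0.234, since vehicle array 3 was low in this list. Gad2, a glutamate decarboxylase that makes GABA, had 258, 268 and 296 in the TsA arrays, against 336, 395 and 142 in the vehicle arrays (0.030 ± 0.31), whereas Gad1, the other decarboxylase, had 2498, 2295 and 2342 in the TsA arrays, against 2259, 2507 and 2138 in the vehicle arrays (0.049 ± 0.10). For Gad2 and the receptor subunit genes Gabra2 (162, 139 and 68.6 in the vehicle arrays) and Gabra4 (179.9, 161 and 85.7) the TsA arrays lay inside the range of the vehicle arrays. Markers of glia and vessels had medians of 0.0121 (22 oligodendrocyte genes), 0.0714 (11 precursor genes), 0.0256 (19 astrocyte genes) and -0.0244 (24 vessel genes). The groups did not overlap for 1 precursor gene, higher, and for 1 vessel gene higher and 2 lower. Over all genes these shares were 3.31% higher and 3.24% lower. Kdr, the main receptor of vascular endothelial growth factor, had 30.5, 33.5 and 35.5 in the TsA arrays, against 49.9, 41.0 and 50.1 in the vehicle arrays (-0.36 ± 0.13, interval -0.64 to -0.067, and -0.13 at a second probe set), and Tnr, the matrix protein tenascin-R, 49.1, 54.7 and 55.7 in the TsA arrays, against 39.0, 38.7 and 43.0 in the vehicle arrays (0.30 ± 0.12, and 0.55 ± 0.12 in the cortex), both without overlap.

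The vehicle arrays lay farther apart than the TsA arrays, which is given as a description of 3 arrays a group, with no test. Among probe sets that were not dim, the median SD between the 3 arrays on the log2 scale was 0.115 with TsA and 0.181 with vehicle, and the SD was the larger in vehicle for 70.4% of them. Of the 10241 genes that were not dim, 4452 (43.5%) had all 3 TsA arrays strictly between the lowest and the highest vehicle array, whereas 1062 (10.4%) had all 3 vehicle arrays between the lowest and the highest TsA array. For 3633 genes (35.5%) the TsA arrays lay between vehicle arrays 1 and 3. A single axis held 57.4% of the variance within groups. The TsA arrays scored -1.09, 2.24 and -1.15 on it, against 30.83, 1.56 and -32.38 for the vehicle arrays, so it sets vehicle array 1 against vehicle array 3. Vehicle array 1 was in the run without TsA arrays and vehicle array 3 in the run with them, while vehicle array 2, from the run of array 1, scored between the 2. The scores are taken from each group's own mean, so they do not show how near a vehicle array lies to the TsA arrays. Whether pools, dissection or handling differed between these arrays was not tested.

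The genes with the largest excess of spread in vehicle were chosen for it, so their values are a description. Gabrb2, a GABA receptor subunit gene, had 272, 322 and 313 in the TsA arrays, against 698, 350.0 and 125 in the vehicle arrays, an SD on the log2 scale of 0.12 with TsA and 1.18 with vehicle, and its other probe set stood at -0.14. Ktn1, the gene of kinectin, had 85.8, 164 and 152 in the TsA arrays, against 497, 162 and 61.7 in the vehicle arrays, and Atrx, a chromatin remodeller gene, 50.7, 57.4 and 56.6 in the TsA arrays, against 189.9, 59.5 and 31.4 in the vehicle arrays. Taok1, a kinase gene, had 61.8, 82.7 and 93.1 in the TsA arrays, against 163, 108 and 22.9 in the vehicle arrays, and Nexn, an actin-binding protein gene, 58.7, 58.7 and 46.1 in the TsA arrays, against 188, 71.1 and 26.9 in the vehicle arrays. In these 5 genes vehicle array 1 was the highest and vehicle array 3 the lowest of the 6 arrays. Fam111a, which encodes a protease and gave the largest difference of all genes (0.99 ± 0.53, interval -0.24 to 2.21), had 86.0, 91.1 and 62.2 in the TsA arrays, against 104, 4.65 and 28.3 in the vehicle arrays: its vehicle array 1 was above each TsA array. Wider spread with TsA was found for Sv2b, a synaptic vesicle protein gene, with 297, 1388 and 435 in the TsA arrays, against 453, 275 and 285 in the vehicle arrays and other probe sets at -0.080 and 0.027, and for Pxmp4 (110.3, 24.6 and 154 in the TsA arrays, against 65.4, 64.9 and 150.5 in the vehicle arrays), Grm8, Cntnap1, Prc1 and Zic2.

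**Figure D4:**
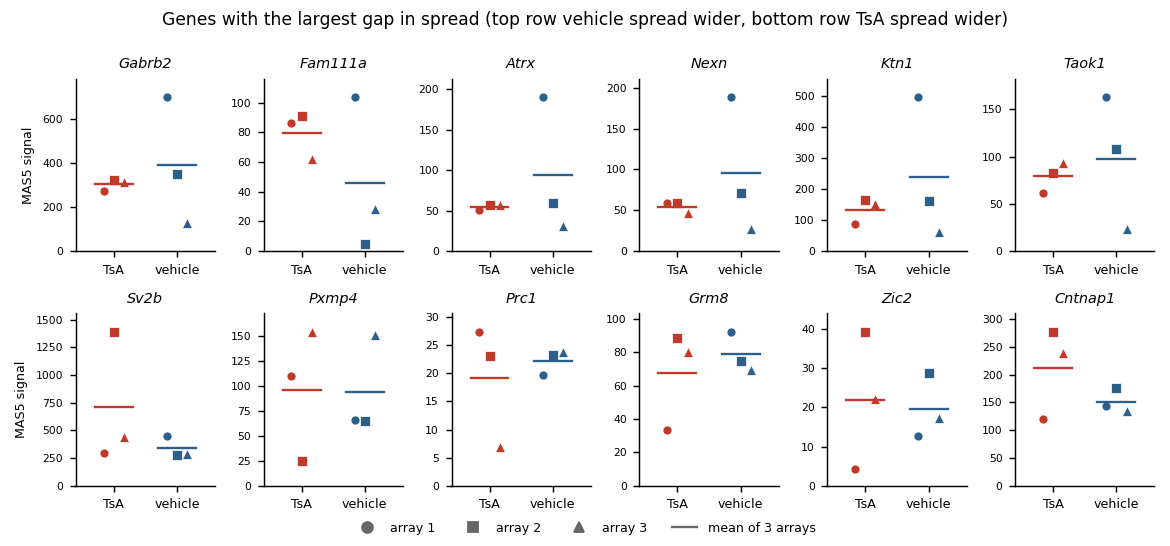
Signal of the 6 genes with the largest excess of spread in vehicle (top) and the 6 in TsA (bottom), with the MAS5 signal from 0 upward on the vertical axis, the TsA arrays (red) left of the vehicle arrays (blue), symbols for arrays 1 to 3 and a line at the mean. In the top row vehicle array 1 (circle) is high and, except in Fam111a, vehicle array 3 (triangle) is the lowest, as for Ktn1 with 497 and 61.7, and in the bottom row single TsA arrays stand apart, as for Sv2b with 1388 in array 2.

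Some genes of splicing were also highest in vehicle array 1 and lowest, among the vehicle arrays, in array 3. Clk1, which encodes a kinase of splicing factors, had 448, 188 and 237 in the TsA arrays, against 773, 375 and 301 in the vehicle arrays (-0.68 ± 0.38, interval -1.56 to 0.20), and Clk4, its relative, 113, 72.8 and 83.0 in the TsA arrays, against 215, 129.8 and 93.5 in the vehicle arrays (-0.57 ± 0.26). Srsf5 and Srsf6, splicing factor genes, stood at -0.47 ± 0.22 and -0.34 ± 0.18, each with vehicle array 1 the highest. Within the run these 4 genes stood at -0.14, -0.070, -0.13 and -0.020. Over the 34 genes of the list 15 were above 0 and 19 below, and the median was -0.0637, or -3.03e-04 within the run. The groups did not overlap for 2 members with TsA higher and 1 with TsA lower, against 3.31% and 3.24% of all genes. The higher ones were Nolc1, a nucleolar protein gene, with 297, 334 and 293 in the TsA arrays, against 257, 282 and 286 in the vehicle arrays (0.15 ± 0.10), and Hnrnpd, an RNA-binding protein gene, with 401, 433 and 411 in the TsA arrays, against 391, 388 and 365 in the vehicle arrays (0.12 ± 0.091). The lower one was Srsf7, with 19.1, 18.5 and 15.9 in the TsA arrays, against 19.4, 28.1 and 23.3 in the vehicle arrays (-0.22 ± 0.13).

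To ask whether any difference was particular to the accumbens, the effect of TsA in the accumbens minus that in the anterior cingulate cortex was tested in 1 limma fit of all 12 arrays. Of 31042 probe sets 0 (0%) passed, with a smallest adjusted p of 0.908 after Benjamini-Hochberg adjustment, and 1216 (3.92%) had an unadjusted p under 0.05. This count was 3813 without accumbens vehicle array 3 and 2473 without cortex vehicle array 1, with 0 past the test and smallest adjusted p of 0.382 and 0.619; without cortex vehicle array 2 it was 818 and the smallest adjusted p 0.0954. In the cortex alone 0 passed too. The 6 genes on each side with the smallest unadjusted p, among those that were not dim and whose effects differed by at least 0.4, are given as values, each with an adjusted p of 0.908. Fluidics run 2 held cortex TsA arrays 2 and 3 together with accumbens vehicle arrays 1 and 2, so run and treatment are linked in opposite directions in the 2 structures, and the run enters their difference. With the run as a block 0 probe sets passed, 832 had an unadjusted p under 0.05 and the smallest adjusted p was 0.116. The run's part in the genes named next was not tested. Dkc1 encodes dyskerin, the pseudouridine synthase of small nucleolar RNPs and telomerase. In the accumbens it had 138, 102 and 130.5 in the TsA arrays, against 97.0, 111 and 69.1 in the vehicle arrays (0.38 ± 0.18), and in the cortex 60.7, 64.3 and 62.2 in the TsA arrays, against 105, 110.3 and 142 in the vehicle arrays (-0.78 ± 0.16). The TsA arrays of the cortex were all low, those of the accumbens overlapped their vehicle arrays, and the difference between the effects was 1.16 ± 0.22 (interval 0.68 to 1.64, unadjusted p 1.86e-04). For Pcdh10 the cortex stood at -0.11 ± 0.10 and the difference was 0.55 ± 0.14 (interval 0.24 to 0.86), and for Palmd these values were -0.31 ± 0.17 and 0.98 ± 0.24. Arcn1, a subunit gene of the coat of transport vesicles, Cln8, a gene of neuronal ceroid lipofuscinosis, and Tbc1d25 had differences of 0.43 ± 0.12, 0.53 ± 0.14 and 0.59 ± 0.16. In the cortex these 3 genes stood at -0.32, -0.37 and -0.32. In the accumbens they stood at 0.11 ± 0.10, 0.16 ± 0.11 and 0.27 ± 0.13, each with an interval that held 0. Within the run of the accumbens TsA arrays they stood at 0.096, 0.052 and 0.11, and Dkc1 at 0.71.

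On the other side Clk4 stood at 0.65 ± 0.27 in the cortex, so its difference was -1.22 ± 0.38 (interval -2.05 to -0.39), and within the run of the accumbens TsA arrays it stood at -0.070. Tead2 had 17.9, 27.0 and 20.4 in the cortical TsA arrays, against 19.2, 17.0 and 20.6 in the cortical vehicle arrays, and a difference between structures of -0.68 ± 0.19 (interval -1.09 to -0.26). Greb1l (-0.71 ± 0.20), Pcgf6, a Polycomb subunit gene (-0.75 ± 0.23), Apoo (-0.57 ± 0.18) and Timm9, a chaperone gene of the mitochondrial intermembrane space (-0.45 ± 0.14), also stood above 0 in the cortex and below it in the accumbens. Within the run of the accumbens TsA arrays, however, Timm9 stood at 0.11 and Apoo at 0.065, on the other side of 0, Pcgf6 at -0.030 and Greb1l at -0.26. For Hdac1 the cortex stood at 0.12 ± 0.10 and the difference at 0.30 ± 0.15 (interval -0.025 to 0.62, unadjusted p 0.0673), so a difference between the structures was not shown. Mpeg1 stood at -0.86 ± 0.26 in the cortex, close to its value in the accumbens, with a difference of 0.0070 ± 0.37 (interval -0.79 to 0.80), which is wide.

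**Figure D5:**
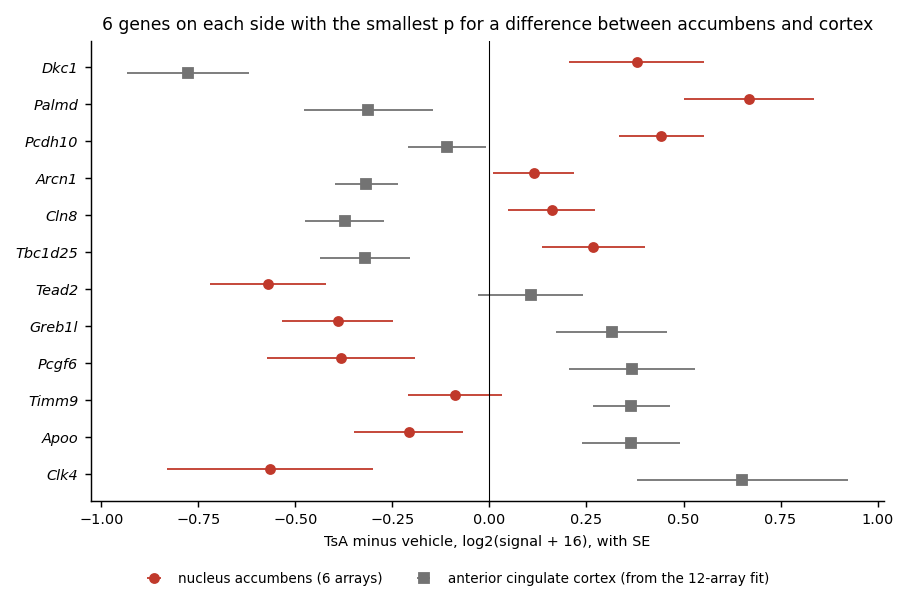
Difference TsA minus vehicle on the log2(signal + 16) scale (horizontal axis, with SE) in the accumbens (red circles) and in the anterior cingulate cortex (grey squares) for the 6 genes on each side of 0 with the smallest p for a difference between the structures. The genes were chosen for this gap, which is widest for Clk4 (-0.57 and 0.65) and Dkc1 (0.38 and -0.78).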

How the data were processed

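RNA of 6 accumbens pools was measured on a Rat Genome 230 2.0 array, 1 pool of 2 rats per array. The deposited values are linear intensities (MAS5 signals, GCOS 1.4, per the submitters' processing notes), scaled by the authors, and the deposited run records gave the fluidics runs. The genome build of the probes is not given in the sources used here, so no sequence or position is printed. Of 31099 probe sets, 57 control probe sets were left out, and of the other 31042, 20826 had 1 gene symbol (14217 genes), 436 several and 9780 none; 20758 were found in the RefSeq table by gene ID. All values present were used.

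log2(signal + 16) was fitted with limma 3.58.1 in R 4.3.3 (lmFit, eBayes with trend), with a mean per group, two-sided, with Benjamini-Hochberg adjustment over all probe sets and a threshold of 0.05. The fit has 4 residual degrees of freedom, and the number of arrays limits the precision. A difference is TsA minus vehicle with its moderated SE. The fit of all 12 arrays has 4 group means. A gene's value is that of its brightest probe set. The code was tested on simulated data. Each array holds a pool of 2 rats, so p-values measure the spread between arrays. That spread holds the differences between pools, arrays and fluidics runs together.

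The genes named are the 12 higher and 12 lower with the smallest unadjusted p among those that do not overlap, differ by at least 0.4 and are not dim; members of the chromatin, response, immediate-early, MAP kinase, dopamine, neurotrophin and spiny neuron lists; up to 4 members of other lists by unadjusted p; 6 genes on each side for the difference from the cortex, with the limits of size and dimness but overlap allowed; and 6 genes on each side for spread. Aif1, Csf1r, Nolc1, Hnrnpd, Bsg, Chat, Slc5a7, Gabra2, Gabra4, Gad2, Neurod6, Slc17a7 and Srsf7 were named after their values were seen. The comparison and the 43 gene lists, from textbook knowledge (1009 of 1160 symbols measured, 26 by synonym), were chosen with earlier results of these data known. Alternatives were other added constants (1 and 64), a filter on dim probe sets, quantile normalization, median centring, array weights, no trend, the fluidics run or the replicate number as a block, all 12 arrays, and each array left out. Deviations of arrays with the same number correlated at -0.078, -0.077 and 0.053 between the groups, and those with other numbers at -0.070 to 0.119. The deviations are taken from means of only 3 arrays, so they cannot decide whether the numbers pair the pools.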

Additional observations from a re-analysis of the deposited data

How the results depend on the processing

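The count of probe sets past the test was 0 under each alternative run, for the accumbens and for the difference from the cortex. In the accumbens the smallest adjusted p was 0.246 with array weights (3699 probe sets at an unadjusted p under 0.05), 0.601 with the fluidics run as a fixed block (2105), 0.588 without vehicle replicate 3 (2618) and 0.875 without vehicle arrays 1 and 3, a setting chosen after seeing the data (1726). With the dim probe sets left out 255 had an unadjusted p under 0.05, of fewer tested. The other accumbens alternatives had between 582 (run as a random block) and 1050 (all 12 arrays) and smallest adjusted p of 0.970 to 1.00; leaving out single arrays gave 692 to 2618. With the replicate block 780 had an unadjusted p under 0.05 and 0 passed, and for the difference from the cortex 1504 and 0, so the block changed no call. For that difference the smallest adjusted p was 0.0954 without cortex vehicle replicate 2, 0.116 with the run as a block (832), 0.323 with array weights (4297) and 0.840 without dim probe sets (662). The 24 genes with non-overlapping groups had the same sign under each alternative. For most alternatives the lack of overlap fixed that sign beforehand, so it is no sign of stability. Of their values 6 moved beyond the spread between replicates. Palmd was 0.329 with the run as a block and Rell2 0.258 without vehicle arrays 1 and 3. With 1 added Crocc was 0.948 and Tead2 -0.917, and with 64 added Tead2 was -0.263 and Cx3cr1 -0.256. The medians of 39 of 43 lists had the same sign under the 4 scalings and added constants, 17 when each array was left out, 17 within the run and 9 in all of these. The causes were not tested. Dim genes are limited by the added 16, which shrinks their differences.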

Other observations

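Gene groups outside the comparisons above also had 0 members past the test in the limma fit. The median difference TsA minus vehicle was -0.0511 for 24 genes of sodium, calcium and HCN channels, 0.0355 for 9 of the endocannabinoid system, 0.0491 for 24 that respond to glucocorticoids, 0.0345 for 22 of cholesterol synthesis and uptake, 0.0615 for 30 of the proteasome and 0.0163 for 36 of cytoskeleton and axon. Interneuron markers were without overlap for Slc18a3, the vesicular acetylcholine transporter of cholinergic interneurons, with 24.0, 19.9 and 29.0 in the TsA arrays, against 17.4, 19.4 and 19.6 in the vehicle arrays (0.20 ± 0.13), and for Kit, a receptor kinase, with 27.0, 29.3 and 30.4 in the TsA arrays, against 24.9, 25.6 and 19.0 in the vehicle arrays (0.20 ± 0.12). Other cholinergic genes had overlapping groups: Chat, which makes acetylcholine, stood at -0.054 ± 0.14 and Slc5a7, the choline transporter, at 0.10 ± 0.28. Over the 17 interneuron markers 10 stood above 0 and the median was 0.0340. The groups did not overlap for 2 of them, both higher, against 3.31% of all genes.

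Among vessel genes Bsg, which encodes basigin, had 1187, 1122 and 1092 in the TsA arrays, against 938, 1055 and 1061 in the vehicle arrays (0.15 ± 0.10), and Kcnj8, a pericyte potassium channel gene, 17.4, 18.6 and 16.2 in the TsA arrays, against 20.1, 20.8 and 23.5 in the vehicle arrays (-0.16 ± 0.11). Slc16a3, a lactate exporter gene, was dim and without overlap, with 24.4, 20.2 and 24.8 in the TsA arrays, against 11.05, 15.6 and 12.4 in the vehicle arrays (0.43 ± 0.12, and 0.26 ± 0.16 in the cortex). It was the 1 such member of 29 genes of glycolysis and hypoxia, against 3.31% of all genes with TsA higher. Meningeal markers had a median of 0.00628 over 20 genes and markers of choroid plexus and ependyma 0.0225 over 13, of which 3 were not dim.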
